A study of Mus musculus with 16 samples.

Results

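Amino acid catabolism in the liver was examined through 39 genes that encode its enzymes, followed in 4 groups of mice that differed in diet and feeding state. The members were the rows of the count table whose Ensembl ID carries 1 of 39 gene symbols, out of 46078 genes in the table, and they were sorted into 8 pathways. The aromatic pathway of phenylalanine and tyrosine held 5 members, the path from tryptophan through kynurenine 5, histidine 4, lysine 1, branched-chain amino acids 10, proline and ornithine 4, glycine and serine 6, and alanine, aspartate and glutamate 4. All 39 members passed the filter on low counts, as 15075 genes of the table did.

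The livers came from male C56B6/J mice (strain as spelled in the labels) that ate a control diet (CD) or, to induce obesity, a diet with 60% of calories from fat (HFD), in each case for 16 weeks from 8 weeks of age. They were taken either in the fed state with free access to food or after a 16 h fast. This gave the groups CD fed, CD fast, HFD fed and HFD fast with 4 libraries each, with no transgene or drug in their labels. The labels number the liver samples without naming the animals, so p-values measure the spread between these samples. A liver sample mixes hepatocytes with other cells, so fewer cells of a type and less RNA per cell cannot be told apart.

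The liver is the main site of degradation for most amino acids, whose nitrogen goes to urea and whose carbon skeletons feed gluconeogenesis, ketone bodies or oxidation. Branched-chain amino acids are an exception, because their first transamination takes place largely outside the liver. Several of the enzymes, among them tyrosine aminotransferase and serine dehydratase, are classical examples of genes induced by glucagon and glucocorticoids in the fasted or protein-fed liver.

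Library totals ranged from 41364448 to 57583153 counts, and the counts of single members averaged 577.4 to 104150 per library, with 82 as the lowest count of any member in any library. Levels are given as CPM, the count scaled to the library's total over tested genes after trimmed mean of M-values (TMM) scaling, on which 3 counts, taken as the detection floor, correspond to 0.0536 to 0.0767 CPM. The hepatocyte marker list, which includes the member Tat, summed to 66927 to 132232 CPM over the 16 libraries, whereas lists for pancreatic acinar, adipocyte and kidney tubule cells reached at most 2.06 CPM. Sums of several cell marker lists differed between CD fast and CD fed livers. The 6 sinusoidal endothelium markers summed to 167 to 218 CPM in CD fast against 232 to 260 CPM in CD fed, 218 to 241 CPM in HFD fed and 204 to 266 CPM in HFD fast livers. The 6 Kupffer cell markers summed to 147 to 238 CPM in CD fast against 214 to 424 CPM in CD fed livers, and 3 of 6 endothelial, 2 of 6 Kupffer cell, 1 of 6 stellate cell, 1 of 4 erythroid and 2 of 6 hepatocyte markers were called lower with fasting in CD, where 11.5% of all tested genes were. The hepatocyte sum averaged 112525 CPM in CD fed and 91686 CPM in CD fast livers, which overlapped, and 116051 CPM in HFD fed and 80498 CPM in HFD fast livers, which did not. The 5 cholangiocyte markers, none of them called, averaged 28.3 and 39.8 CPM in sum, and of 4 lymphocyte markers none was called (edgeR; 2 cholangiocyte and 0 lymphocyte markers had an unadjusted p under 0.05). The part of these lists in the changes below was not tested.

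Per kilobase of annotated exon and averaged over the 16 libraries, the members spanned a wide range of levels. Hpd was the highest at 1030 CPM per kb, followed by Tat at 654.7, Oat at 546 and Tdo2 at 455 CPM per kb. The lowest were Acmsd at 4.03, Bckdk at 3.86 and Auh at 3.83 CPM per kb. Of the aromatic members Gstz1 was the lowest at 137 CPM per kb, close to Bckdha, which led the branched-chain members at 139 CPM per kb. Exons of Gstz1, Acmsd, Bckdha, Mccc1 and Sds overlap an annotated gene on the other strand, and those of Hibadh and Aldh4a1 one on the same strand, so reads of these 7 members could include reads of the neighbour.

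**Figure D1:**
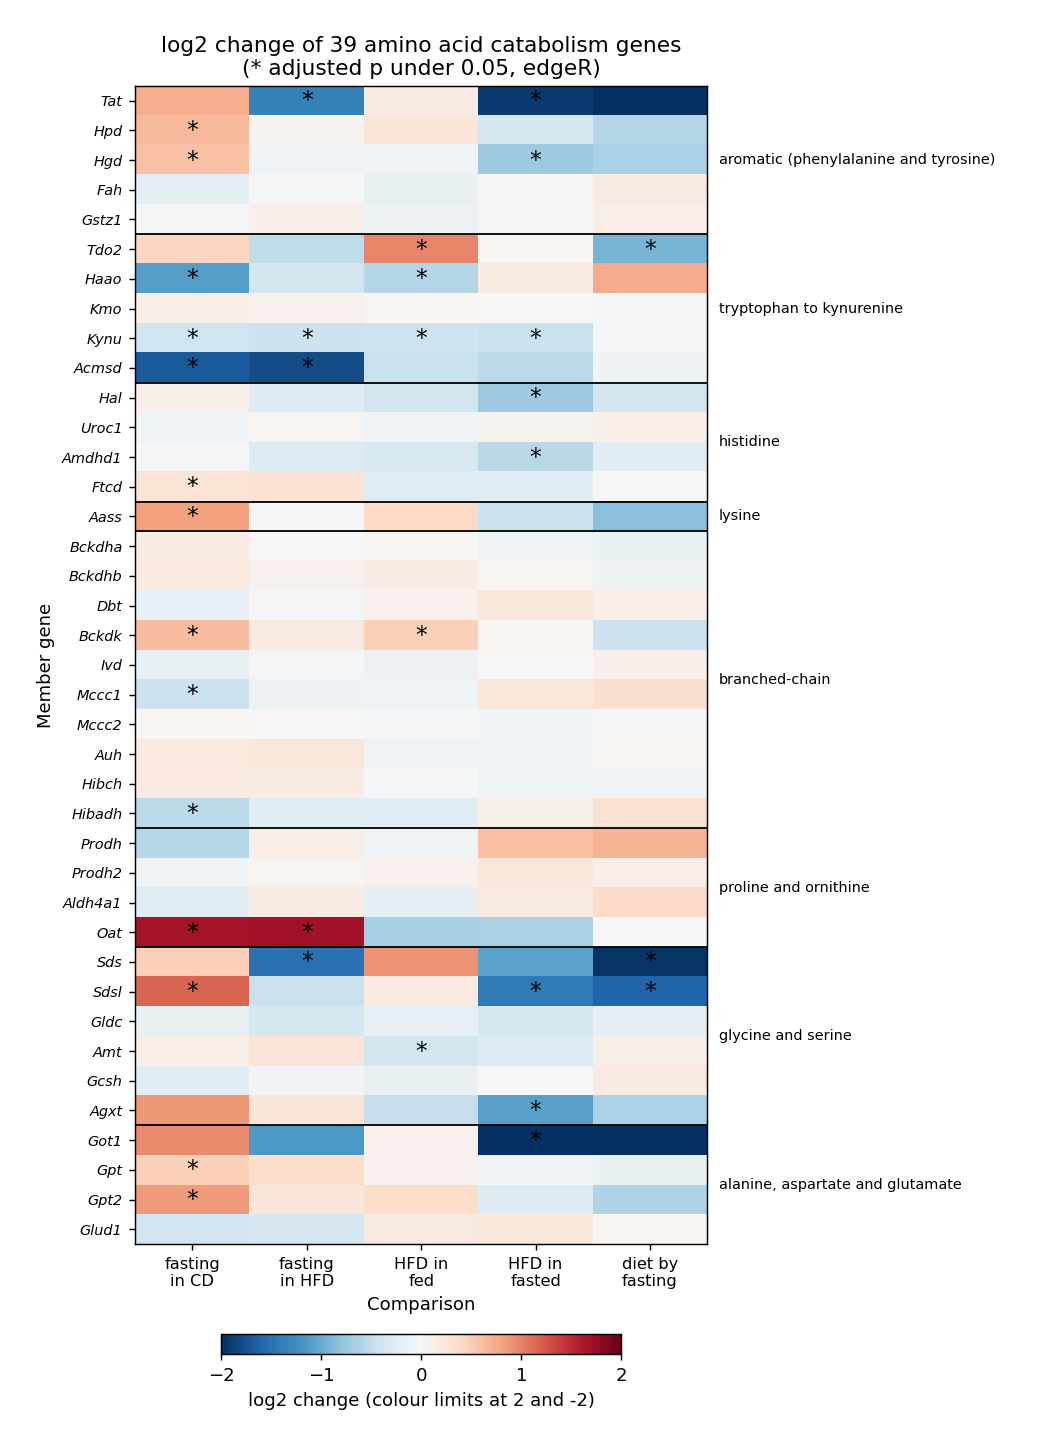
Colour map of the log2 change of each of the 39 members (rows, grouped by pathway) in the 4 pairwise comparisons and in the diet by fasting interaction (columns), with stars at an adjusted p under 0.05. The fasting column of CD holds 14 stars and that of HFD 5, and the 8 stars of HFD against CD in fasted mice all mark lower levels.

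To ask how the pathways respond to fasting in each diet, and to diet in each feeding state, a gene was called when its adjusted p in the edgeR quasi-likelihood test was under 0.05, with adjustment over all 15075 genes. In fasting in CD, 14 of 39 members were called, 9 higher and 5 lower, where 25.2% of all tested genes were called (13.7% higher and 11.5% lower). The members that rose were Oat, Sdsl, Gpt2, Aass, Hpd, Bckdk, Hgd, Gpt and Ftcd, and those that fell were Acmsd, Haao, Hibadh, Mccc1 and Kynu. The median log2 change over the 39 members was 0.12, beside -0.01 over all tested genes, and 15 members had no overlap between the 4 fasted and the 4 fed libraries, beside 25.4% of all genes. Under total count scaling the split became 8 higher and 8 lower. That of all genes moved as well, from 2066 higher and 1731 lower to 1628 higher and 2045 lower.

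Fasting in HFD gave 5 called members, with 1 higher (Oat) and 4 lower (Acmsd, Sds, Tat and Kynu), where 8.86% of all tested genes were called (4.78% higher and 4.07% lower). The median over members was -0.02, beside 0.01 over all genes. The split was 3 higher and 3 lower under total count scaling and 3 higher and 4 lower under upper quartile scaling. Over all genes these gave 894 higher and 429 lower, and 836 higher and 531 lower, where TMM scaling gave 721 and 614. With the replicate number as a block the split of the members was 4 higher (Oat, Ftcd, Auh and Amt) and 3 lower (Acmsd, Sds and Kynu), beside 788 higher and 652 lower over all genes. Oat, Acmsd and Kynu were the 3 members called in both diets, each with the same sign in both. Of the 9 members that rose with fasting in CD, 1 was called with fasting in HFD, beside 20.4% of the 2066 genes that rose with fasting in CD.

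HFD in fed mice also gave 5 called members, Tdo2 and Bckdk higher and Haao, Kynu and Amt lower, with 7.5% of all tested genes called (3.28% higher and 4.22% lower). Under total count scaling 3 members were called, 2 of them higher, beside 916 higher and 415 lower calls over all genes (495 and 636 under TMM scaling). HFD in fasted mice gave 8 called members, all lower, with 7.7% of all tested genes called (3.05% higher and 4.65% lower). These were Got1, Tat, Sdsl, Agxt, Hal, Hgd, Amdhd1 and Kynu. None rose by edgeR, DESeq2 or limma-voom, and 2 members were higher at an unadjusted p under 0.05. Total count scaling, which shifted the median log2 change of all genes in this comparison from 0.01 to 0.17, gave 4 lower (Tat, Hgd, Sdsl and Got1) and 4 higher (Dbt, Mccc1, Prodh2 and Aldh4a1) members. Over all genes it called 1851 higher and 250 lower, where TMM scaling called 460 and 701. The one-sided split of the members thus holds only relative to the TMM, size factor and upper quartile scalings. With only these 2 groups in the fit 1 member (Sdsl) was called, where 90 of 14446 tested genes were. Cell marker lists moved in this comparison too. All 6 endothelial (2 called higher), all 6 stellate cell (1 called higher), 5 of 6 Kupffer cell (none called by edgeR, 2 at an unadjusted p under 0.05) and all 4 erythroid markers (1 called higher) had positive estimates, and the stellate cell sum was 120 to 197 CPM in CD fast and 210 to 313 CPM in HFD fast livers. Their part in the lower levels of the 8 members was not tested. The median over members was -0.08 in fed and -0.06 in fasted mice, beside 0.01 over all genes in both.

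The diet by fasting interaction asks whether the fasting change differs between the diets, and a negative sign means a lower value in HFD. It was called for 3 members, Sds, Sdsl and Tdo2, all negative, where 2.59% of all tested genes were called (1.23% positive and 1.36% negative). Of the positive estimates 3 had an unadjusted p under 0.05, and limma-voom called no positive member either. DESeq2 called 8 members, 7 negative, adding Tat, Hgd, Aass, Got1 and, with a positive sign, Haao. Over all 15075 tested genes DESeq2 called 1066, 491 of them positive and 575 negative. Total count scaling gave 2 negative and 1 positive member, beside 134 negative and 306 positive calls over all tested genes. The interaction estimates of all 6 Kupffer cell, all 6 endothelial, all 6 stellate cell and all 4 erythroid markers were positive, with 1 erythroid marker called, and their part in the members' interactions was not tested. Each fasting comparison shares a group with each diet comparison (CD fed libraries enter both fasting in CD and HFD in fed mice), and the interaction uses all 4 groups, so changes in comparisons that share libraries are set side by side and not counted as separate evidence.

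**Figure D2:**
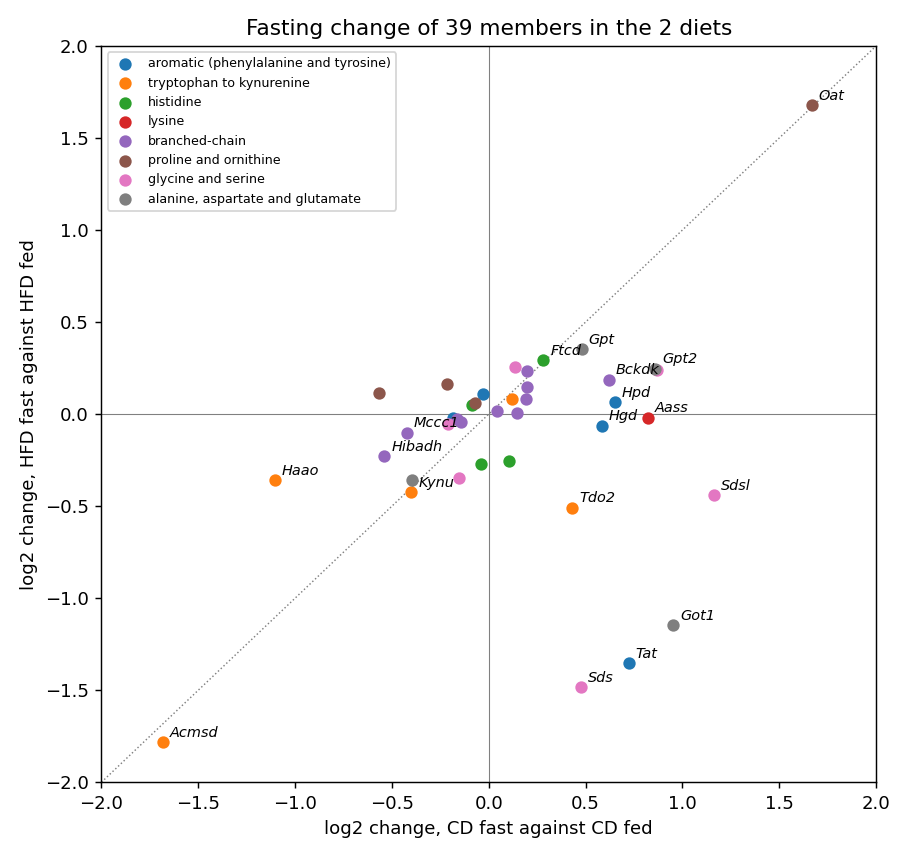
Each point is 1 of the 39 members, coloured by pathway, with the log2 change of CD fast against CD fed on the horizontal axis and of HFD fast against HFD fed on the vertical axis; the dotted line marks equal change. Oat and Acmsd lie near the line at both ends, while Sds, Tat and Got1 lie below it, with values of 0.48, 0.72 and 0.95 in CD and -1.48, -1.35 and -1.15 in HFD.

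In the proline and ornithine pathway, Oat had the largest rise of any member in both diets. Over its 4 members the median log2 change was -0.14 with fasting in CD, 0.14 with fasting in HFD, and -0.14 and 0.20 with HFD in fed and fasted mice. Oat, the mitochondrial ornithine aminotransferase that turns ornithine into the precursor of glutamate and proline, lies on the minus strand of chr7:132557478-132576398 (GRCm38). It measured 543, 944, 782 and 747 CPM in CD fed and 2637, 2675, 2061 and 2202 CPM in CD fast livers. In HFD fed livers it was at 533, 466, 557 and 350 CPM, against 2001, 1759, 1327 and 1018 CPM in HFD fast livers. Each fasted library thus lay above every fed library of the same diet.

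Oat rose 3.18-fold in CD (log2 change 1.67 ± 0.22 SE, adjusted p = 8.81e-05) and 3.2-fold in HFD (1.68 ± 0.22, adjusted p = 5e-04). The interaction estimate was 0.01 ± 0.30 (adjusted p = 0.986), an SE that leaves room for a difference between diets. HFD levels of Oat were lower than CD levels by estimates of -0.66 ± 0.21 in fed (adjusted p = 0.0675) and -0.65 ± 0.21 in fasted mice (adjusted p = 0.0702), neither called by edgeR and both by DESeq2 (0.0213 and 0.0215). Under the same test the other 3 members of the pathway, Prodh (proline dehydrogenase), Prodh2 (hydroxyproline dehydrogenase) and Aldh4a1 (a dehydrogenase further along the path from proline to glutamate), were called in no comparison. Prodh ranged within a group from 98.5 to 241 CPM in CD fed livers, and its fasting estimate in CD was -0.57 ± 0.28 (adjusted p = 0.155).

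Members of the tryptophan path moved in both directions. Their median log2 change was -0.40 with fasting in CD, -0.42 with fasting in HFD, and -0.42 and 0.01 with HFD in fed and fasted mice. Tdo2, tryptophan dioxygenase, opens the indole ring as the entry step, and Kmo, Kynu and Haao carry kynurenine on to the intermediate at which Acmsd, a decarboxylase, diverts carbon away from quinolinate and NAD synthesis. Acmsd fell most of all members with fasting in both diets, at 26, 16.9, 13.6 and 24.3 CPM in CD fed and 4.83, 4.73, 7.36 and 8.16 CPM in CD fast livers. The corresponding values in HFD were 15.4, 8.27, 11.6 and 24.2 CPM fed and 3.21, 3.56, 1.72 and 8.79 CPM fasted. Fed and fasted livers were apart in CD, while in HFD the highest fasted library lay above the lowest fed one.

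Acmsd was 3.21-fold lower with fasting in CD (-1.68 ± 0.41, adjusted p = 0.00836) and 3.44-fold lower in HFD (-1.78 ± 0.42, adjusted p = 0.018). Without HFD fast replicate 1 the adjusted p in HFD was 0.0556, at a log2 change of -1.66, with only the 2 groups compared in the fit it was 0.0617, and the estimate ranged from -2.40 to -1.44 over the fits that left out 1 library. Acmsd lies at chr1:127729413-127767978 on the plus strand, and 2900009J06Rik overlaps its exons on the other strand.

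Upstream sequence is shown for members with large rises in CD with fasting, so that the bases before their starts can be read beside the values. RefSeq promoter entries (GRCm38.p6) matched 34 of the 39 members. Of the 3 largest rises among the members called with fasting in CD (Oat, Sdsl and Gpt2), Sdsl was not matched. The others are given as the 250 bases before the start, 5′ to 3′ on the gene's strand, with matches in capitals to TGACG (the core letters of a cAMP response element), AGAACA (the core letters of a glucocorticoid response element), CCAAT and TATAAA, each searched on both strands. The stretch of Oat is chr7:132576399-132576648 (minus strand) and that of Gpt2 chr8:85492326-85492575 (plus).
Oat: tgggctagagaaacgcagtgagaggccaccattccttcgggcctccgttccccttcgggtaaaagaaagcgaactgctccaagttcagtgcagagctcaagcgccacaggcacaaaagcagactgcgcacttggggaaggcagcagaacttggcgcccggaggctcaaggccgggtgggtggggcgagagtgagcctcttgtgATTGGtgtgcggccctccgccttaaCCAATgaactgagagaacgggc
Gpt2: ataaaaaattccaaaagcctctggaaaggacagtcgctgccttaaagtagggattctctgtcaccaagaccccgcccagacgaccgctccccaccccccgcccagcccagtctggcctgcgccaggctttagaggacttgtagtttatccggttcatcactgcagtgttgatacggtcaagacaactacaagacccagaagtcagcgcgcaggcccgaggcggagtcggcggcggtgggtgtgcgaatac

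The stretch of Oat holds CCAAT letters at 2 places, starting at -47 and -22 from the start, and that of Gpt2 holds none of the 4 motifs. Over the 34 matched members, 4 held TGACG or its complement CGTCA (11.8%), beside 17.8% of 32851 promoter entries in the same window. AGAACA or TGTTCT was in 4 (11.8%, beside 16.1%), CCAAT or ATTGG in 20 (58.8%, beside 33.8%) and TATAAA or TTTATA in 5 (14.7%, beside 12.4%). The full TGACGTCA, which contains TGACG, was in none of the 34 and in 1.55% of all entries. Each member was counted by a single entry, while the entries beside them were not reduced to a single entry per gene or to tested genes. The shares thus come from unlike sets and were not tested against each other. A match is a description of letters in this window, and none of these data show binding.

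Haao, the dioxygenase that opens the ring of hydroxyanthranilate, fell with fasting in CD from 488, 610, 535 and 534 CPM to 255, 209, 302 and 241 CPM. In HFD it was at 406, 364, 378 and 301 CPM fed and 279, 361, 280 and 209 CPM fasted. All CD fed libraries stood above the rest, and the HFD groups overlapped. The fasting change of Haao was -1.11 ± 0.15 in CD (2.15-fold lower, adjusted p = 0.00014) and -0.36 ± 0.15 in HFD (adjusted p = 0.146), with an interaction of 0.75 ± 0.21 (adjusted p = 0.0726), and its level in fed mice was 1.49-fold lower in HFD than in CD (-0.58 ± 0.15, adjusted p = 0.0303). The call of diet in fed mice was lost in 6 of 16 fits without 1 library, with an adjusted p of up to 0.0975 without CD fed replicate 2.

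Kynu, kynureninase, was the single member called in all 4 pairwise comparisons, each time lower in the fasted or HFD group. In CD it measured 198, 227, 222 and 231 CPM fed and 161, 162, 172 and 169 CPM fasted. In HFD it measured 196, 142, 170 and 149 CPM fed and 141, 116, 99.5 and 132 CPM fasted. The groups were apart in each pair compared, and CD fast and HFD fed livers covered similar values. The changes were small: -0.40 ± 0.11 and -0.42 ± 0.11 with fasting in CD and HFD (adjusted p = 0.0165 and 0.0293), and -0.42 ± 0.11 and -0.44 ± 0.11 with HFD in fed and fasted mice (adjusted p = 0.0336 and 0.027). Under total count scaling Kynu kept its sign and lost the 3 calls other than fasting in CD, with adjusted p of 0.053, 0.0656 and 0.102. With only the groups compared in the fit it lost fasting in HFD (0.0903) and HFD in fasted mice (0.074). Leaving out single libraries lost its call in 4 fits for fasting in HFD (up to 0.105 without HFD fed replicate 1), 6 for HFD in fed mice and 3 for HFD in fasted mice.

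Tdo2 rose with HFD in fed mice, from 1339, 1158, 1199 and 1249 CPM in CD fed to 2623, 1872, 3261 and 2013 CPM in HFD fed livers, a 1.98-fold difference (0.98 ± 0.17, adjusted p = 0.00263). In fasted livers it was at 1570, 1344, 1998 and 1742 CPM in CD and 1804, 1839, 1783 and 1442 CPM in HFD. The diets were thus apart in the fed state and overlapped after the fast (0.05 ± 0.16, adjusted p = 0.892). The fasting estimates of Tdo2 had opposite signs, 0.43 ± 0.16 in CD (adjusted p = 0.0673) and -0.51 ± 0.16 in HFD (adjusted p = 0.0654), and although edgeR called neither, it called their difference (-0.94 ± 0.23, adjusted p = 0.0435). DESeq2 called both fasting changes of Tdo2 (0.0341 in CD and 0.0188 in HFD). The interaction call of Tdo2 by edgeR was lost in 13 of 16 fits without 1 library, at adjusted p of up to 0.0927 (without CD fed replicate 2), and without a count filter (0.0551). Kmo, which hydroxylates kynurenine, was called in no comparison.

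**Figure D3:**
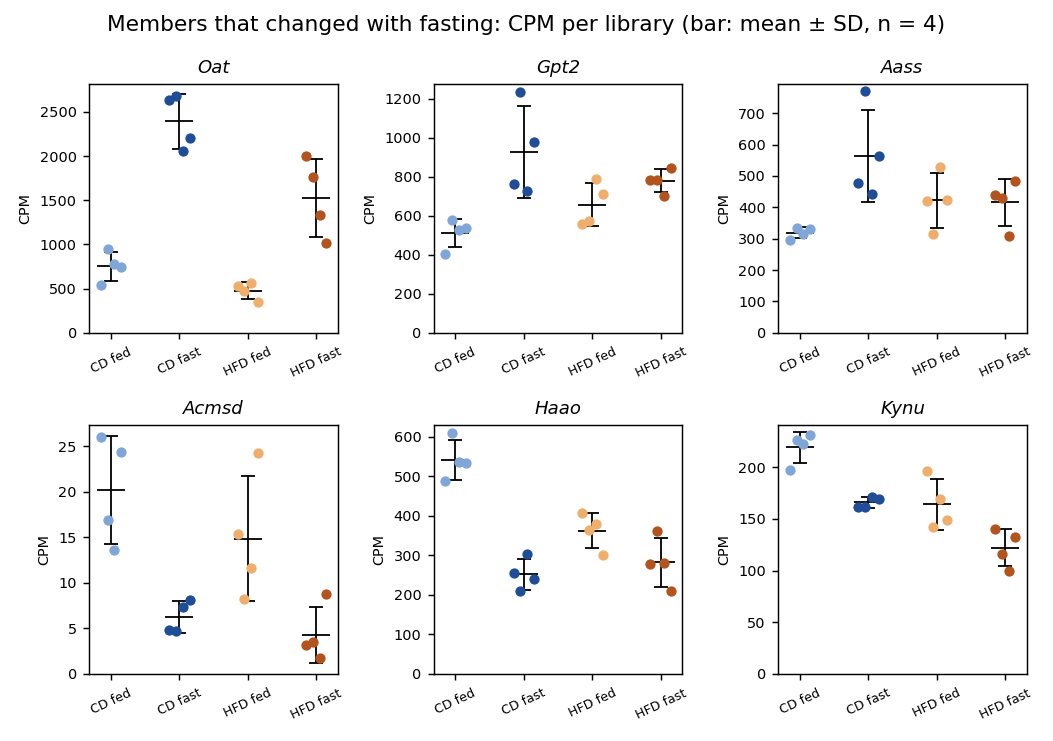
CPM of Oat, Gpt2, Aass, Acmsd, Haao and Kynu in each of the 16 libraries (points), by group on the horizontal axis, with bars at mean ± SD of the 4 libraries. Oat is higher in every fasted library than in every fed library of the same diet, whereas Haao is highest in the 4 CD fed libraries, at 488 to 610 CPM.

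In the glycine and serine pathway the serine dehydratases were the members with a called interaction. The median over the 6 members was 0.31 with fasting in CD, -0.20 with fasting in HFD, and -0.16 and -0.71 with HFD in fed and fasted mice. Sds and its paralog Sdsl encode enzymes that deaminate serine and threonine, and their genes are neighbours on chromosome 5, Sds on the plus strand at chr5:120476526-120483932 and Sdsl on the minus strand at chr5:120458186-120472810. Sds measured 207, 239, 161 and 188 CPM in CD fed and 162, 339, 244 and 363 CPM in CD fast livers. In HFD it measured 335, 224, 367 and 553 CPM fed and 135, 104, 67.4 and 222 CPM fasted. The CD groups overlapped, and in HFD all fasted libraries were below all fed ones, by a narrow margin between the nearest libraries.

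The fasting change of Sds was 0.48 ± 0.33 in CD (adjusted p = 0.316) and -1.48 ± 0.34 in HFD (2.8-fold lower, adjusted p = 0.0158), with an interaction of -1.96 ± 0.48 (adjusted p = 0.0407). HFD against CD gave 0.90 ± 0.34 for Sds in fed (adjusted p = 0.118) and -1.07 ± 0.34 in fasted mice (adjusted p = 0.0639), both called by DESeq2 (0.0489 and 0.0133) and the latter with the replicate block (0.0347). The interaction call of Sds was lost in 13 of 16 fits without 1 library, at adjusted p of up to 0.0751 (without HFD fed replicate 3) and log2 values of -2.06 to -1.70 among them, and under total count scaling (0.0538). Gm15690 and Plbd2 overlap exons of Sds on the other strand.

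Sdsl was expressed at a lower level, at 14.3, 9.7, 8.39 and 9.34 CPM in CD fed and 24.5, 26.2, 19 and 23.8 CPM in CD fast livers. HFD fed livers had 10.6, 9.15, 10.5 and 17.4 CPM and HFD fast livers 8.85, 7.09, 7.46 and 11.7 CPM. The CD fast group stood above the other 3 groups, which overlapped with each other. Sdsl rose 2.24-fold with fasting in CD (1.16 ± 0.21, adjusted p = 0.00129) and had an estimate of -0.44 ± 0.21 in HFD (adjusted p = 0.213). The interaction, -1.60 ± 0.30 (adjusted p = 0.0164), was called in every fit that left out 1 library and every other setting at the threshold of 0.05. In fasted mice Sdsl was 2.66-fold lower in HFD than in CD (-1.41 ± 0.22, adjusted p = 0.00374), a comparison that shares the CD fast libraries.

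Agxt, which transaminates glyoxylate to glycine, was at 361, 772, 324 and 642 CPM in CD fast and 277, 227, 179 and 303 CPM in HFD fast livers, without overlap. It was 2.13-fold lower in HFD (-1.09 ± 0.31, adjusted p = 0.0431), a call lost under limma-voom (0.0538), upper quartile scaling (0.0596), total count scaling (0.0629), the fit of only the 2 groups (0.0801) and 10 of 16 fits without 1 library (up to 0.12 without CD fast replicate 2). Its fasting estimate in CD was 0.87 ± 0.31 (adjusted p = 0.0503), called higher by DESeq2 (0.018) and with the replicate block (0.0317). Of the glycine cleavage system (Gldc, Amt and Gcsh), Amt, the aminomethyltransferase, was called once. It was lower in HFD fed livers, at 47, 53.3, 47.1 and 48 CPM, than in CD fed livers, at 69.5, 65.5, 58.5 and 59.8 CPM (-0.37 ± 0.10, adjusted p = 0.0299). The 2 groups were apart, and the call was lost under total count scaling (0.0737) and in 5 fits without 1 library (up to 0.0851 without CD fed replicate 2).

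The aromatic pathway, in which Tat, Hpd, Hgd, Gstz1 and Fah act in that order from tyrosine to fumarate and acetoacetate, had its changes in the first 3 enzymes. Median log2 changes of the 5 members were 0.58 with fasting in CD, -0.02 with fasting in HFD, and -0.08 and -0.35 with HFD in fed and fasted mice. Tat, tyrosine aminotransferase, measured 1483, 1819, 945 and 1748 CPM in CD fed and 1369, 3501, 1265 and 3750 CPM in CD fast livers. HFD fed livers held 1078, 1261, 2909 and 1443 CPM and HFD fast livers 932, 641, 433 and 614 CPM. The HFD fast libraries were the 4 lowest of all 16, and within CD fast the libraries fell into a pair near the fed level and a pair far above it. The same CD fast libraries, replicates 2 and 4, were also the highest of their group for Got1, Agxt and Sds. In HFD, replicate 4 was the highest of both the fed and the fasted group for Got1, Agxt, Sds, Sdsl, Acmsd and Hal, though not for Tat. The deviations of these HFD libraries, fed and fasted replicate 4, from their own group means correlated at 0.662 over all tested genes.

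With HFD in fasted mice Tat was 3.77-fold lower (-1.92 ± 0.40, adjusted p = 0.0123), a call kept in every fit without 1 library and lost when only those 2 groups were fitted (0.0564). With fasting in HFD Tat was 2.55-fold lower (-1.35 ± 0.39, adjusted p = 0.0437), which was lost with the replicate block (0.0631) and in 10 of 16 fits without 1 library, to 0.15 at -0.95 without HFD fed replicate 3. Fasting in CD gave 0.72 ± 0.39 (adjusted p = 0.189), and the interaction was -2.07 ± 0.55 (adjusted p = 0.0566), not called by edgeR.

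Hpd, the dioxygenase that follows Tat, rose with fasting in CD from 1543, 2092, 1608 and 1790 CPM to 2248, 3257, 2686 and 2849 CPM (1.57-fold, 0.65 ± 0.17, adjusted p = 0.0136). The groups were apart in CD, while in HFD 1957, 1888, 2403 and 2062 CPM fed overlapped with 2616, 2714, 1634 and 1722 CPM fasted (0.06 ± 0.17, adjusted p = 0.85). Hgd, homogentisate dioxygenase, rose 1.5-fold with fasting in CD (0.58 ± 0.14, adjusted p = 0.00598) and was 1.65-fold lower in HFD fast than in CD fast livers (-0.73 ± 0.14, adjusted p = 0.00779; 0.0682 with only those 2 groups fitted). The difference between the diets in the fasting change was -0.59 ± 0.25 for Hpd (adjusted p = 0.196) and -0.65 ± 0.19 for Hgd (adjusted p = 0.082), so edgeR called neither. Gstz1 and Fah, the last 2 enzymes, were called in no comparison by edgeR with TMM scaling, with fasting estimates in CD of -0.03 ± 0.10 and -0.19 ± 0.09. Total count scaling called Fah lower with fasting in CD (0.0479).

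Among the aminotransferases of alanine and aspartate, Got1, the cytosolic aspartate aminotransferase, had the largest difference between diets. For the 4 members of this pathway the median was 0.67 with fasting in CD, -0.06 with fasting in HFD, and 0.13 and -0.15 with HFD in fed and fasted mice. It was at 279, 1063, 402 and 807 CPM in CD fast and 174, 105, 63.4 and 291 CPM in HFD fast livers, beside 295, 461, 248 and 317 CPM in CD fed and 296, 190, 334 and 582 CPM in HFD fed livers. The highest HFD fast library reached above the lowest CD fast library, so the groups overlapped. Got1 was 4.03-fold lower in HFD fast livers (-2.01 ± 0.48, adjusted p = 0.0215), with adjusted p of 0.0618 when CD fast replicate 2 was left out, 0.0593 when HFD fast replicate 3 was, and 0.0791 when only the 2 groups were fitted. Its interaction estimate, -2.10 ± 0.66, was the most negative of all members and was not called by edgeR (adjusted p = 0.1).

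The alanine aminotransferases rose with fasting in CD. Gpt2, the mitochondrial enzyme at chr8:85492576-85527560, went from 406, 579, 526 and 535 CPM to 764, 1237, 728 and 981 CPM (1.81-fold, 0.86 ± 0.17, adjusted p = 0.00191), without overlap. In HFD, 557, 574, 788 and 710 CPM fed overlapped with 786, 786, 703 and 844 CPM fasted (0.25 ± 0.17, adjusted p = 0.371), and the interaction was -0.61 ± 0.23 (adjusted p = 0.16). Gpt, the cytosolic enzyme, rose 1.39-fold in CD (0.48 ± 0.13, adjusted p = 0.0175; 0.0579 without CD fed replicate 1 and 0.061 without CD fast replicate 2) and had an estimate of 0.35 ± 0.13 in HFD (adjusted p = 0.114). Glud1, glutamate dehydrogenase, was called in no comparison by edgeR (-0.39 ± 0.15 with fasting in CD, adjusted p = 0.0593), while DESeq2 (0.0311), limma-voom (0.0462) and total count scaling (0.0279) called it lower with fasting in CD.

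**Figure D4:**
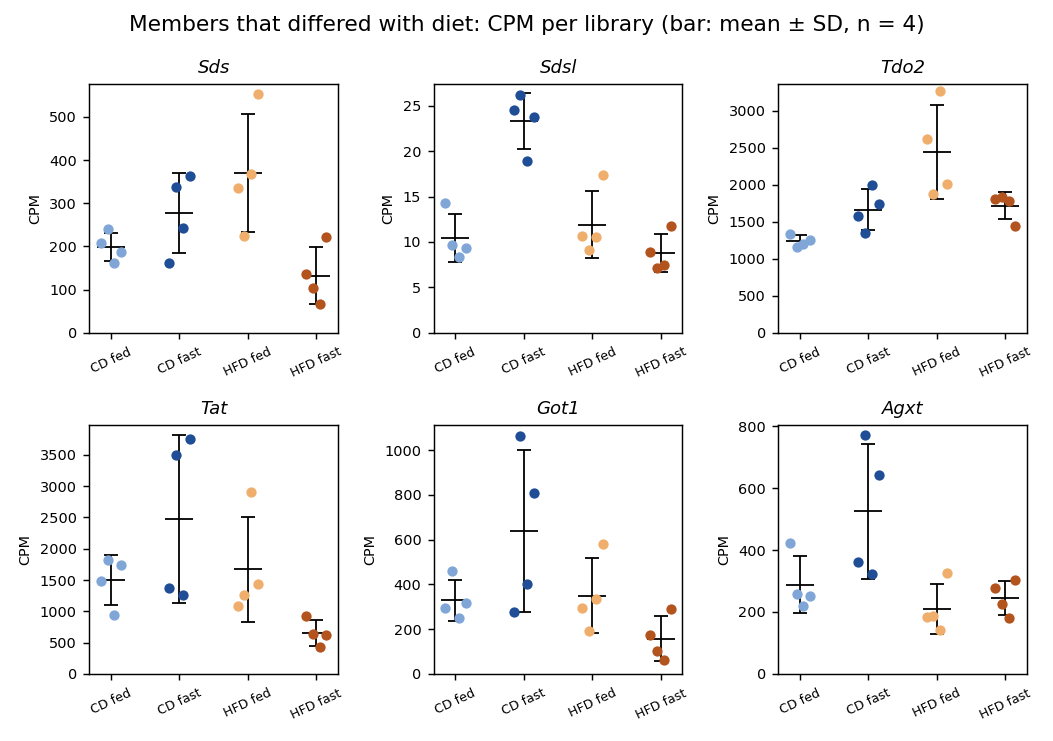
CPM of Sds, Sdsl, Tdo2, Tat, Got1 and Agxt in each of the 16 libraries (points), by group on the horizontal axis, with bars at mean ± SD of the 4 libraries. The CD fast libraries are spread widely for Tat, from 1265 to 3750 CPM, while HFD fast libraries lie between 433 and 932 CPM.

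Histidine degradation, which runs from Hal (histidine ammonia-lyase) through Uroc1 and Amdhd1 to Ftcd, had a called rise with fasting in CD for Ftcd, the enzyme that hands the formimino group to folate. The 4 members had medians of 0.03 with fasting in CD, -0.10 with fasting in HFD, and -0.28 and -0.39 with HFD in fed and fasted mice. Ftcd was 1.21-fold higher (0.28 ± 0.09, adjusted p = 0.0354), a small change that lost its call in 3 settings (total count scaling 0.0844, no count filter 0.0908, only the 2 groups 0.0669) and 7 of 16 fits without 1 library (up to 0.102 without CD fast replicate 4). In fasted mice Hal and Amdhd1, the imidazolonepropionase, were lower in HFD. Hal ranged from 160 to 420 CPM in HFD fast against 458 to 557 CPM in CD fast livers (-0.73 ± 0.21, adjusted p = 0.0461), and Amdhd1 from 96.5 to 171 CPM against 190 to 215 CPM (-0.55 ± 0.13, adjusted p = 0.0222). Neither gene overlapped between the groups. Hal lost its call in 13 of 16 fits without 1 library (up to 0.0985 without CD fast replicate 2), and Amdhd1 in 1 (0.0551 without the same library), and neither was called under total count scaling (0.0961 and 0.0821) or with only the 2 groups fitted (0.129 and 0.0902). Upper quartile scaling also ended the call of Hal (0.0685). All 4 histidine members had negative estimates with HFD in fed mice, none of them called by edgeR, DESeq2 or limma-voom, and 2 at an unadjusted p under 0.05. In that comparison edgeR called 7.5% of all tested genes. Uroc1 was called in no comparison.

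Lysine is represented by Aass, the bifunctional enzyme that opens lysine degradation. Aass rose 1.77-fold with fasting in CD, from 295, 334, 315 and 330 CPM to 478, 771, 442 and 563 CPM (0.82 ± 0.18, adjusted p = 0.00436). In HFD, fed libraries at 420, 316, 529 and 424 CPM overlapped with fasted libraries at 440, 431, 309 and 484 CPM (-0.02 ± 0.18, adjusted p = 0.957). The difference between the diets was -0.84 ± 0.26, not called by edgeR (adjusted p = 0.0888).

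In the branched-chain pathway, 3 of 10 members were called with fasting in CD, 1 higher and 2 lower, near the 25.2% of all genes, and the median log2 change was 0.09 with fasting in CD, 0.01 with fasting in HFD, and -0.03 and 0.01 with HFD in fed and fasted mice. Bckdk, the kinase that phosphorylates and inhibits the branched-chain ketoacid dehydrogenase, measured 8.88, 10.6, 10.7 and 11.3 CPM in fed and 16.1, 17.9, 15.2 and 14.6 CPM in fasted CD livers. It measured 12.5, 15.3, 14.2 and 15.4 CPM in fed and 14.3, 17.2, 18.6 and 15.3 CPM in fasted HFD livers. The CD fed libraries were the 4 lowest of the 16. Bckdk was 1.54-fold higher with fasting in CD (0.62 ± 0.10, adjusted p = 0.000636) and 1.38-fold higher with HFD in fed mice (0.47 ± 0.10, adjusted p = 0.0132), and both calls held in every fit without 1 library. With fasting in HFD the estimate was 0.19 ± 0.10 (adjusted p = 0.268), with an interaction of -0.43 ± 0.15 (adjusted p = 0.119).

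Bckdha, Bckdhb and Dbt, the subunits of the complex that Bckdk inhibits, were called in no comparison by edgeR, with estimates between -0.17 and 0.22 over the 4 pairwise comparisons. Mccc1, a subunit of the carboxylase in leucine degradation, fell with fasting in CD from 65.7, 70, 72.4 and 69.7 CPM to 49.3, 48.8, 56.3 and 52.7 CPM (-0.42 ± 0.11, adjusted p = 0.00929). Its partner subunit Mccc2 had an estimate of 0.04 ± 0.08. Hibadh, the dehydrogenase of hydroxyisobutyrate in valine degradation, fell from 273, 307, 341 and 286 CPM to 209, 166, 242 and 213 CPM (-0.54 ± 0.14, adjusted p = 0.0107). Fasted and fed CD libraries were apart for both genes, whose exons overlap other annotated genes, for Mccc1 on the other strand.

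In HFD the branched-chain members had no call with fasting by edgeR, DESeq2 or limma-voom, where edgeR called 8.86% of all tested genes. Among these members 1 (Auh) had an unadjusted p under 0.05 and was called under total count scaling. For HFD in fasted mice the same 3 tools also called 0 of 10, where edgeR called 7.7% of all tested genes. Here 1 member (Mccc1) had an unadjusted p under 0.05, whereas total count scaling called Dbt and Mccc1 higher. The interaction was called for 0 of 10 by the same 3 tools, with 2 (Bckdk and Mccc1) at an unadjusted p under 0.05. There edgeR called 2.59% of all tested genes, and counts of 0 of 10 are near these shares. SEs of the 10 members in the pairwise comparisons lay between 0.08 and 0.14 on the log2 scale.

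Over all 5 comparisons edgeR called 22 of 39 members at least once, where 35% of all tested genes were, and 17 never. The 17 were Fah, Gstz1, Kmo, Uroc1, Bckdha, Bckdhb, Dbt, Ivd, Mccc2, Auh, Hibch, Prodh, Prodh2, Aldh4a1, Gldc, Gcsh and Glud1. Their pairwise log2 changes reached at most 0.60 in size (Prodh, HFD in fasted mice), and their smallest adjusted p was 0.0593. Other settings at the same threshold called 7 of the 17, all 7 under total count scaling (Fah, Gcsh and Glud1 lower with fasting in CD, Auh higher with fasting in HFD, and Dbt, Prodh2 and Aldh4a1 higher with HFD in fasted mice). DESeq2 and limma-voom called Glud1 among them, and Auh was called higher with the replicate block (fasting in either diet) and under upper quartile scaling (fasting in HFD).

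Ratios of paired genes within a library (all members except Qprt) were taken from log2 CPM with a prior count of 2 added. The scaling of the library enters these ratios only through that small added count. They are given without a test. The log2 ratio of Bckdk to Bckdha was -4.61 ± 0.14 fed and -4.13 ± 0.15 fasted in CD (SD, n = 4), and -4.18 ± 0.11 fed and -4.00 ± 0.20 fasted in HFD, so that CD fed libraries stood apart below the rest. The ratio of Gpt to Gpt2 was -1.12 ± 0.06 and -1.49 ± 0.19 in CD fed and CD fast libraries, which did not overlap, and was -1.40 ± 0.19 and -1.31 ± 0.23 in HFD fed and fast libraries, which did. Sds to Sdsl stood at 4.26 ± 0.32 fed and 3.50 ± 0.54 fasted in CD, and at 4.92 ± 0.22 fed and 3.80 ± 0.45 fasted in HFD, with no overlap between the HFD groups. The ratio alone does not show which gene moved. The fasting estimates in HFD were -1.48 for Sds, which was called, and -0.44 for Sdsl, which was not. Acmsd relative to Qprt, which takes quinolinate on to NAD, was -3.34 ± 0.42 in CD fed and -4.60 ± 0.51 in CD fast libraries, without overlap, and -3.58 ± 0.66 and -5.17 ± 0.95 in HFD fed and fast libraries, which overlapped. The ratio of Prodh to Prodh2 overlapped in all 4 pairwise comparisons.

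**Figure D5:**
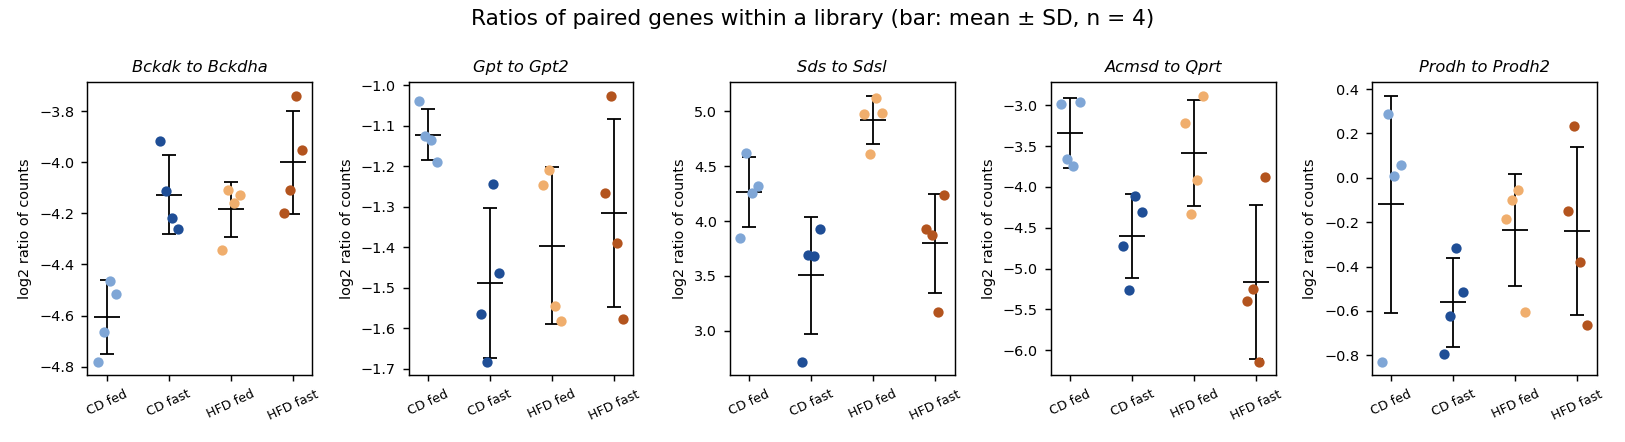
The log2 ratio of counts of 5 gene pairs within each of the 16 libraries (points), by group on the horizontal axis, with bars at mean ± SD of the 4 libraries; the vertical axes differ between panels. CD fed libraries are the lowest for Bckdk to Bckdha, and HFD fed libraries, at 4.61 to 5.12, lie above the HFD fast libraries for Sds to Sdsl.

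Other genes of the same pathways, 90 listed and 82 tested, changed in both directions with fasting in CD, 19 higher and 20 lower (47.6% called, beside 25.2% of all genes). Among the called genes the 3 largest rises were Hsd17b10 (1.45 ± 0.21), of isoleucine degradation, Il4i1 (1.43 ± 0.19), an amino acid oxidase, and Acadm (1.17 ± 0.12), an acyl-CoA dehydrogenase shared with fatty acid oxidation, and the 3 largest falls Dct (-1.75 ± 0.50), Pycr1 (-1.34 ± 0.37), of proline synthesis, and Gcat (-1.11 ± 0.11), of threonine degradation. Dct and Il4i1 were at most 5.14 CPM in any library. Called shares of the 82 were 18.3% for fasting in HFD (beside 8.86% of all genes), 18.3% for diet in fed mice (beside 7.5%) and 4.88% for diet in fasted mice (beside 7.7%). With fasting in HFD 9 rose, led by Hsd17b10 (0.93 ± 0.21), Abat (0.80 ± 0.10) and Acadm (0.52 ± 0.12), and 6 fell, led by Kyat1 (-1.01 ± 0.09), Hao1 (-0.90 ± 0.17) and Kyat3 (-0.89 ± 0.17). HFD in fed mice raised 4, led by Il4i1 (0.94 ± 0.19), Acadm (0.65 ± 0.12) and Ppm1k (0.46 ± 0.13), the phosphatase that opposes Bckdk, and lowered 11, led by Dct (-3.23 ± 0.55), Ddc (-1.41 ± 0.13) and Gnmt (-0.80 ± 0.18). In fasted mice 4 were lower in HFD, among them Asl (-1.27 ± 0.27), the argininosuccinate lyase of the urea cycle, Kyat3 (-0.75 ± 0.17) and Ddc (-0.47 ± 0.13). The interaction was called for 5 of the 82 (6.1%, beside 2.59% of all genes), negative for Asl (-1.59 ± 0.37) and Hadha (-0.66 ± 0.15) and positive for Mmab (1.19 ± 0.28), Ddc (0.94 ± 0.18) and Aldh1l1 (0.91 ± 0.22).

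Of 23 listed regulators of these pathways, 6 were called with fasting in CD (26.1%, near the share of all genes). Sik1 (1.85 ± 0.51), Ppargc1a (1.24 ± 0.39) and Creb3l3 (0.79 ± 0.13), which act in the glucagon and fasting response, rose most, and Mlxipl (-0.99 ± 0.14), the carbohydrate-responsive factor, fell. With fasting in HFD Klf15 (-0.68 ± 0.16), a factor known to drive amino acid catabolism genes, Hnf4a (-0.55 ± 0.10) and Mlxipl (-0.48 ± 0.14) fell. Klf15 averaged 204.6 ± 38.5 CPM fed and 218 ± 42.7 CPM fasted in CD, and 212 ± 34.5 CPM fed and 132 ± 17.5 CPM fasted in HFD (SD, n = 4), and its level in fasted mice was lower in HFD (-0.72 ± 0.16, adjusted p = 0.0172). Its interaction was -0.77 ± 0.23, not called (adjusted p = 0.0857). Atf4 was the regulator called with HFD in fed mice (-0.44 ± 0.09).

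Amino acid transporters, 24 of 25 tested, included Slc25a44, the mitochondrial branched-chain amino acid carrier, which fell with fasting in both diets (-0.93 ± 0.08 in CD and -0.86 ± 0.08 in HFD) and was lower with HFD in fed mice (-0.33 ± 0.08). With fasting in CD 8 of 24 were called (33.3%, beside 25.2% of all genes), 3 lower and 5 higher, the latter led by Slc7a2 (1.18 ± 0.31), Slc25a22 (1.11 ± 0.27) and Slc25a12 (0.53 ± 0.13). In fasted mice 5 of 24 were called for diet (20.8%, beside 7.7% of all genes). Of these 4 were lower in HFD, led by Slc25a22 (-0.95 ± 0.27), Slc38a2 (-0.90 ± 0.25) and the ornithine carrier Slc25a15 (-0.85 ± 0.18), and Slc36a1 was higher (0.63 ± 0.15).

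Zonation markers were set beside these results, since Sds and Hal are known from the periportal zone. Of 10 periportal markers 2 were called lower with HFD in fasted mice, Pck1 (-1.49 ± 0.26) among them, beside 4.65% of all tested genes. All 10 estimates were negative, with a median of -0.56 beside 0.01 over all genes. With fasting in HFD 9 of the 10 estimates were negative, at a median of -0.49, and 1 was called lower, beside 4.07% of all tested genes. Pck1, the key enzyme of gluconeogenesis, rose with fasting in CD (0.75 ± 0.25) and fell in HFD (-0.86 ± 0.25), and its interaction was called (-1.60 ± 0.36, adjusted p = 0.0296). Of 11 pericentral markers 1 was called lower with HFD in fasted mice, Lhpp (-0.76 ± 0.19), beside the same 4.65% of all tested genes. The median of the 11 was 0.20. The part of these markers in the lower levels of members in HFD fast livers was not tested.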

How the data were processed

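Poly(A)-selected RNA of 16 numbered liver samples, 1 library per sample, was sequenced by the authors. The raw counts per Ensembl gene deposited by the authors were used as they stand; per the submitters' processing notes reads were handled with CASAVA 1.8.4 and TopHat2 2.0.11 on GRCm38 and counted with featureCounts. The strand setting of the counting step is not given in the sources used here, so overlapping genes are uncertain. Reads carry no molecular identifiers, so floors cover counting error only.

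Symbols and positions came from GENCODE vM21 (45143 of 46078 genes matched), and upstream sequences from RefSeq. Groups came from the sample labels. The test used edgeR 4.0.16 in R 4.3.3 (filterByExpr, TMM, all 16 libraries with a coefficient for each group, 12 residual df, common biological coefficient of variation 19.2%), with quasi-likelihood tests of 5 contrasts and Benjamini-Hochberg adjustment over 15075 genes. Every adjusted p of a gene is from this test unless a setting is named, and ± after a log2 change is its SE. Calls by edgeR are likewise those of this test. The other settings of scaling, filter, block, groups and libraries were also fitted with edgeR and are named where used. Alternatives were DESeq2 1.42.0, limma-voom 3.58.1, size factor, upper quartile and total count scaling, no filter or 1 CPM in 4 libraries, the replicate number as a block, only the groups compared, a threshold of 0.01 and the omission of each library. Members, lists and the rule for the genes named were chosen with earlier results of these data known. By that rule libraries are given for called members (the 5 largest changes each way with fasting in CD, 3 in the other pairwise comparisons, all in the interaction), lists by up to 3 called genes each way, and upstream bases for 3 rises and 2 falls; the upstream bases of the falls and 1 called list gene are not reported here. The procedure was tested on simulated data.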

Additional observations from a re-analysis of the deposited data

Results flagged for a closer look

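Sds, Sdsl and Tdo2 changed with fasting differently in the 2 diets by the interaction test. For Sds the log2 change in HFD was lower than in CD by an interaction estimate of -1.96 (0.48 in CD and -1.48 in HFD, adjusted p = 0.0407). For Sdsl it was -1.60 (1.16 and -0.44, adjusted p = 0.0164), and for Tdo2 it was -0.94 (0.43 and -0.51, adjusted p = 0.0435). The interaction calls of Sds and Tdo2 were each lost in 13 of 16 fits without 1 library, while that of Sdsl held in every such fit.

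Single libraries stood apart from the other 3 of their group by Dixon's criterion in 7 of 156 groups examined. That share is near the 1 in 20 or so that chance gives. Fah was low in CD fast replicate 1 (479.7 CPM, the others 580 to 585 CPM), and so was Auh in the same library (36.0 CPM, against up to 42.0 CPM in the others). Tdo2 was low in HFD fast replicate 4 (1442 CPM, the others 1783 to 1839 CPM), and Ftcd was low in HFD fast replicate 3 (416 CPM, the others 503 to 516 CPM). Uroc1 was high in CD fed replicate 2 (519 CPM, the others 476 to 480.2 CPM). Amt was high in HFD fed replicate 2 (53.3 CPM, the others 47.0 to 48.0 CPM) and in HFD fast replicate 2 (62.7 CPM, the others 56.4 to 56.9 CPM).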

How the results depend on the processing

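Of 35 calls of members, 18 held under every alternative at the threshold of 0.05 and in every fit without 1 library, 12 of 14 with fasting in CD, 2 of 5 with fasting in HFD, 2 of 5 with HFD in fed mice, 1 of 8 with HFD in fasted mice (Sdsl) and 1 of 3 in the interaction (Sdsl). No called member changed sign under the alternatives run. At a threshold of 0.01 the counts were 9 and 1 for fasting in CD and in HFD, 1 (fed mice) and 2 (fasted mice) for diet, and 0 for the interaction. Over all genes they were 1859, 331, 338, 217 and 31 of 15075 in the same order. With only the groups compared in the fit, fasting in HFD gave 3 (with 1014 of 14581 genes called) and HFD in fasted mice 1 (with 90 of 14446). Total count scaling gave 3 with HFD in fed mice (with 1331 of 15075 genes called), and DESeq2 gave 8 in the interaction (with 1066 of 15075). For the counts that moved, the cause was not tested. Over the fits without 1 library the counts ranged from 13 to 17 for fasting in CD, from 3 (HFD fed replicate 1, HFD fed replicate 3 or HFD fast replicate 1 left out) to 6 for fasting in HFD, from 2 (leaving out CD fed replicate 2, HFD fed replicate 3 or HFD fed replicate 4) to 6 for diet in fed mice, from 4 (without CD fast replicate 2 or HFD fast replicate 3) to 9 for diet in fasted mice, and from 1 to 3 in the interaction, where 9 of the fits gave 1. Calls over all genes in these fits ranged from 2857 to 3958 and from 505 to 1533 for fasting in CD and HFD. They ranged from 514 to 1268 and from 535 to 1354 for diet in fed and fasted mice, and from 147 to 461 in the interaction. Replicate numbers were shared by the groups. Libraries were compared by how their log2 levels deviated from the mean of their own group, over all tested genes. By this measure same-numbered libraries correlated between -0.243 and 0.662 over 24 pairs. In the same measure 7 of 16 libraries correlated best with their own number, so the samples were taken to share only a number. Between fed and fasted libraries of a diet all 8 same-numbered pairs were positive, at 0.0523 to 0.112 in CD and 0.0583 to 0.662 in HFD, and 8 of 8 CD but 3 of 8 HFD libraries correlated best with their own number, a hint from the data and not from the design. With the replicate block 16 members were called for fasting in CD and 7 (4 higher and 3 lower) in HFD, 5 and 9 for diet in fed and fasted mice, and 3 in the interaction. Over all genes the block gave 3948, 1440, 1207, 1290 and 359 of 15075 in the same order. At 82 counts and above no member was limited by detection, while small changes such as that of Ftcd stayed near the threshold.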
